A study of Mus musculus with 6 samples.

Results

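The genes Scnn1a, Cacna1b, Slc36a2, Tmem178, Shisa2, Ptgfrn, Crispld2, Hopx and Tctex1d1, 9 in all, were followed across every array of the series. They were chosen by their measured values, as genes that lay far above wild type in the knockout arrays and were taken to have no known role in myeloid cells. The choice set no numeric limit. By the platform's gene symbols they correspond to 17 probe sets of 45037 on the array. All 17 passed the filter on low values, and the 9 genes are among 13267 named genes that did. The comparisons of each knockout genotype with wild type chose the genes, so these are given below as description without a test.

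RNA of bone marrow GMPs, the granulocyte/macrophage progenitors, was hybridised to 6 Affymetrix Mouse Genome 430 2.0 arrays, 2 per genotype. The genotypes were wild type (WT), IRF8KO, which lacks IRF8, and IRF4/8DKO, which lacks both IRF4 and IRF8. All mice were of the BL6 strain. In the order of the replicate numbers, the WT arrays came from a male of 12 weeks and a female of 19 weeks, the IRF8KO arrays from a female of 12 weeks and a male of 22 weeks, and the IRF4/8DKO arrays from a male and a female of 16 weeks. The sources used here do not say how each allele was made or what it removes. Values are dChip intensities on a linear scale, and differences are between means of log2(intensity + 10.5), a scale that understates changes of low signals.

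GMPs are the bone marrow stage from which neutrophils and monocytes arise. IRF8 is a transcription factor that steers GMPs towards monocytes and dendritic cells and away from neutrophils, and IRF4 is its closest relative. Both bind DNA weakly alone and act with partners such as PU.1 on composite elements, where they can activate or repress genes. The genes followed here code for proteins better known elsewhere: ion channels and transporters of epithelium and neurons, membrane proteins of the endoplasmic reticulum, and a regulator of heart and stem cells. Some are not foreign to blood, since Tmem178 has been described in osteoclast precursors, which belong to the myeloid lineage, and Hopx in haematopoietic stem cells.

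Precision is limited by the number of arrays. Median intensity ran from 34.1 to 45.3 over the 6 arrays. Xist and Eif2s3y fitted the labelled sex on 6 of 6 arrays. Of 10 GMP markers none was called in any comparison, and their summed level was 43181 to 50927 in WT, 47542 to 55185 in IRF8KO and 52122 to 61666 in IRF4/8DKO. Cd34, a surface marker by which these GMPs were gated (lineage and IL-7R negative, Sca1 negative, Kit and CD34 positive, high for the Fc receptors II and III), read 1747 and 1401 in WT against 440.3 to 669 on the 4 knockout arrays, with no overlap (limma adjusted p = 0.162 in IRF8KO and 0.213 in IRF4/8DKO). Fcgr3, an Fc receptor of the same gate, lay the other way, at 1090 and 1259 in WT against 2516 to 6315 on the knockout arrays (limma adjusted p = 0.177 and 0.271). Irf8 was not lower in the knockouts. The signal of its brighter probe set was 2588 and 3052 in WT, 3811 and 2602 in IRF8KO, and 2611 and 4778 in IRF4/8DKO. Its other probe set was at 507 and 704 in WT against 934 to 1900 on the knockout arrays, above WT on all 4 (limma adjusted p = 0.341 and 0.440). Irf4 was low on every array and not lower in IRF4/8DKO. One of its probe sets was at 32.1 and 23.5 in WT, 13.8 and 7.66 in IRF8KO, and 66.0 and 54.6 in IRF4/8DKO, highest on the arrays labelled as lacking it (limma adjusted p = 0.534 against WT and 0.482 against IRF8KO), and the other was at 33.1 and 16.8, 29.7 and 14.1, and 11.8 and 20.2, overlapping. So IRF8KO and IRF4/8DKO mean the arrays so labelled throughout. The position of these probes within or outside the deletion is unknown here, so the signal is no check on the genotype labels.

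Promoters are shown first, because a shared sequence was not part of how the genes were chosen. RefSeq (GRCm38.p6) start sites gave 8 windows for 7 of the genes, with 2 for Hopx, each running from 250 bases before to 50 after the start. Scnn1a and Slc36a2 had no entry. The stretch before the start is printed 5′ to 3′ on the gene's strand for 3 windows dense in CpG dinucleotides and 2 sparse ones, with each CpG in capitals.

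Tmem178 (chr17:80944382-80944631, plus strand): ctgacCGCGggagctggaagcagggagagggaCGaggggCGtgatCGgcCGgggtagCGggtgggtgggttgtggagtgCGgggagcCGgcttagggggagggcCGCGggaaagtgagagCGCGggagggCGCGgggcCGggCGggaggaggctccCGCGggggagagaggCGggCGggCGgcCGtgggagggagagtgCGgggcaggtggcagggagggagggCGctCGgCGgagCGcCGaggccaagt
Ptgfrn (chr3:101110167-101110416, minus strand): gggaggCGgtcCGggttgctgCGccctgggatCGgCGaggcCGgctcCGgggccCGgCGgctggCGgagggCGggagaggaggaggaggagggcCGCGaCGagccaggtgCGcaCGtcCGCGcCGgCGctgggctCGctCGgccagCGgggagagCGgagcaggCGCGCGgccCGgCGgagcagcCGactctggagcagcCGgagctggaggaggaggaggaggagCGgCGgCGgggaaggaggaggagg
Cacna1b (chr2:24763153-24763402, minus strand): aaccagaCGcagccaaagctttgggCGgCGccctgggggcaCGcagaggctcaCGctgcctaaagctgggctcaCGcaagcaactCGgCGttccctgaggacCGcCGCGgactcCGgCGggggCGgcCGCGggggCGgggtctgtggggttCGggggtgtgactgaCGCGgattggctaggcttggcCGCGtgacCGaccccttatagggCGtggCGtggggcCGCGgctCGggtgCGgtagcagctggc
Tctex1d1 (chr4:102978453-102978702, plus strand): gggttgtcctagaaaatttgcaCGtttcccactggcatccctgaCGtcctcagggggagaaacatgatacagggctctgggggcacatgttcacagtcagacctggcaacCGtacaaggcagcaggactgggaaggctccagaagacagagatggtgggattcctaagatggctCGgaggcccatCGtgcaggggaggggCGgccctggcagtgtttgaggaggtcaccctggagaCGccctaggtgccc
Hopx, first start (chr5:77115124-77115373, minus strand): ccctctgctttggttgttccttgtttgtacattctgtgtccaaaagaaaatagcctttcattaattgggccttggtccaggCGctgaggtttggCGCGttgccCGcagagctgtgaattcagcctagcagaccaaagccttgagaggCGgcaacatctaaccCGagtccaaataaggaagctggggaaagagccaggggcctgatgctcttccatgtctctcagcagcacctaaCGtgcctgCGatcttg

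CpG density separated these windows from each other. Over the 300 bases the count was 37 for Tmem178, 44 for Ptgfrn and 35 for Cacna1b, against 11 for Tctex1d1 and 8 for the first Hopx start. The second Hopx start held 21, and Shisa2 and Crispld2 held 20 each. Windows of all measured genes (13642) had a median of 19, with quartiles of 9 and 28, and 12.5% held at least 35. None of the 8 windows held an interferon-response type motif (GAAA, any 2 bases, GAAA, on either strand), which 2.95% of the windows of measured genes and 3.44% of all 32851 windows hold. None held the composite of PU.1 and IRF (GGAA, any 2 bases, GAAA), present in 2.36% and 2.72%, or a TATAAA box, present in 7.86% and 13.6%. Of composites of AP-1 and IRF only 2 arrangements were searched (AP-1, any 4 bases, GAAA and TTTC, any 2 bases, AP-1, with AP-1 as TGANTCA). Each was in none of the 8 and in 0.0513% of measured genes' windows. Other spacings, such as GAAA directly beside AP-1, were not searched. With 8 windows and motif shares this low, their absence says little. These counts speak only of these letters in this window.

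Among the channel and transporter genes, Scnn1a, the alpha subunit of the epithelial sodium channel, read 22.3 and 54.2 in WT, 908 and 914 in IRF8KO, and 911 and 2146 in IRF4/8DKO. Every knockout array was well above both WT arrays, and the lowest exceeded the highest WT array 16.8-fold. The mean difference was 4.32 ± 0.54 (SE, n = 2 arrays per genotype) in IRF8KO and 4.94 ± 0.54 in IRF4/8DKO, or 20.0-fold and 30.6-fold. Cacna1b, the pore-forming subunit of the N-type calcium channel of nerve endings, read 27.4 and 15.7 in WT, 584 and 177 in IRF8KO, and 183 and 272 in IRF4/8DKO. The first IRF8KO array stood above the other knockout arrays, and the IRF8KO difference was 2.57 without it and 4.24 without the second, against 3.40 ± 0.59 with both. In IRF4/8DKO it was 2.89 ± 0.59, or 7.42-fold. Slc36a2, a proton-coupled transporter of small amino acids, read 48.7 and 90.2 in WT, 1354 and 762 in IRF8KO, and 688 and 627 in IRF4/8DKO. Its differences were 3.73 ± 0.47 and 3.11 ± 0.47, or 13.3-fold and 8.64-fold, with both IRF4/8DKO arrays below both IRF8KO arrays.

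**Figure D1:**
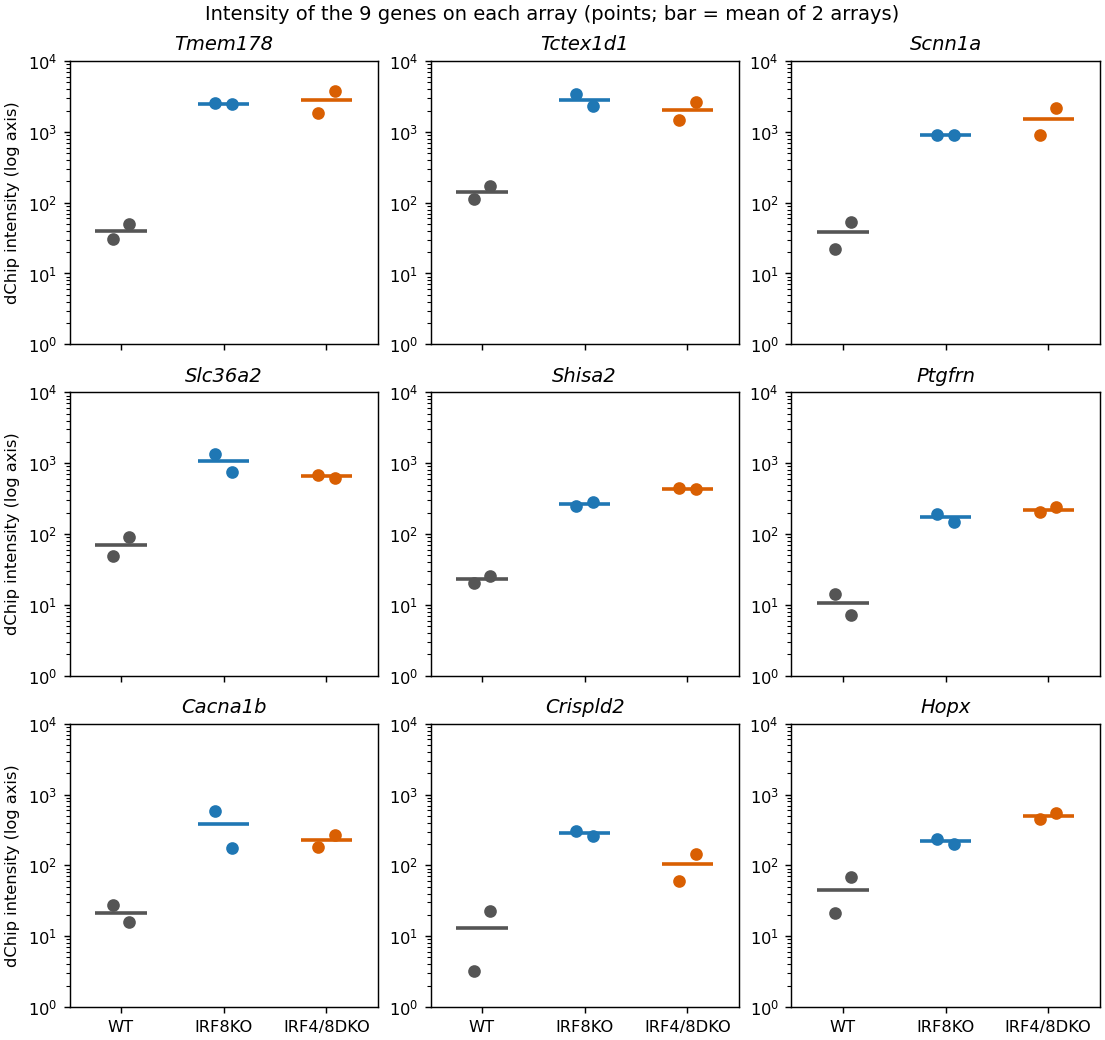
Intensity (log axis) of the 9 genes on each of the 6 arrays, by the probe set with the highest mean, with points for arrays and bars for the mean of 2 arrays. In every panel the 4 knockout arrays lie above both WT arrays, by 2.64-fold for Crispld2 up to 37.7-fold for Tmem178 when the lowest knockout array is set against the highest WT array.

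Of the membrane protein genes, Tmem178, whose protein restrains calcium-driven NFATc1 activity in osteoclast precursors, read 30.8 and 49.5 in WT, 2562 and 2439 in IRF8KO, and 1864 and 3758 in IRF4/8DKO. It ranked 1 of 29783 kept probe sets in both comparisons with WT, at 5.66 ± 0.45 and 5.74 ± 0.45. The 4 knockout arrays overlapped between genotypes. Shisa2, which holds Wnt and FGF receptors in the endoplasmic reticulum, read 20.6 and 25.2 in WT, 251 and 284 in IRF8KO, and 445 and 427 in IRF4/8DKO. The 3 genotypes did not overlap on these arrays, and the differences from WT were 3.06 ± 0.41 and 3.74 ± 0.41, or 8.33-fold and 13.4-fold. Ptgfrn, an immunoglobulin-type protein that binds the tetraspanins CD9 and CD81, read 14.2 and 7.11 in WT, 194 and 149 in IRF8KO, and 204 and 237 in IRF4/8DKO. Its differences were 3.11 ± 0.42 and 3.47 ± 0.42. The WT mean of 10.7 lies near the pseudocount, and the IRF8KO difference ran from 2.07 with a pseudocount of 39.2 to 3.62 with one of 3.9.

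The remaining genes code for a secreted protein, a nuclear protein and a presumed motor subunit. Crispld2, a secreted CAP-domain protein that binds bacterial lipopolysaccharide, read 3.18 and 22.9 in WT, 307 and 261 in IRF8KO, and 60.7 and 145 in IRF4/8DKO. IRF8KO lay highest on both arrays, IRF4/8DKO between it and WT, and the differences from WT were 3.78 ± 0.56 and 2.30 ± 0.56. With a pseudocount of 39.2 they were 2.65 and 1.40. Hopx, a homeodomain protein that does not bind DNA and works with SRF and HDAC2, read 20.9 and 68.0 in WT, 235 and 202 in IRF8KO, and 447 and 544 in IRF4/8DKO. The female WT array was the higher of the pair. The IRF8KO difference of 2.20 ± 0.52 became 1.54 when WT rested on its second array and 2.86 when it rested on its first. In IRF4/8DKO it was 3.34 ± 0.52, or 10.2-fold. Tctex1d1, a member of the Tctex family of dynein light chains, read 111 and 175 in WT, 3374 and 2336 in IRF8KO, and 1495 and 2641 in IRF4/8DKO, with differences of 4.23 ± 0.43 and 3.74 ± 0.43.

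Taken as a group, the 9 genes had a median difference from WT of 3.73 in IRF8KO and 3.47 in IRF4/8DKO, beside -0.06 and -0.04 over all kept probe sets. All 4 knockout arrays lay above both WT arrays for 9 of 9 genes, where 8.51% of kept probe sets had that order. The choice of the genes fixes that count. The smallest differences were those of Hopx in IRF8KO (2.20) and Crispld2 in IRF4/8DKO (2.30). In all, 55 kept probe sets were at or above both values with the same order of arrays. Between arrays of 1 sex the same order follows from this, so only the sizes are described. The male IRF8KO array exceeded the male WT array by 2.30 to 5.89 and the female by 1.64 to 5.42, and for IRF4/8DKO the ranges were 2.35 to 5.50 and 2.22 to 5.97. With 39.2 as the pseudocount the 9 differences were 1.68 to 5.01 in IRF8KO and 1.40 to 5.09 in IRF4/8DKO. Ptgfrn and Crispld2 passed the filter through knockout arrays alone, so they had to differ from WT to be kept.

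Other probe sets of the same genes did not always follow. Of 5 genes with more than 1 probe set, Shisa2 and Hopx were alike in all of theirs. The other Shisa2 probe set differed from WT by 2.93 and 3.33, and the other Hopx probe set by 1.75 and 2.53. For the other 3 genes, 4 of their 9 probe sets lacked the order. The other Ptgfrn probe set was at 31.1 and 33.0 in WT, 6.23 and 20.9 in IRF8KO, and 33.2 and 88.3 in IRF4/8DKO, overlapping WT. Of 4 Cacna1b probe sets, 2 differed by 3.40 and 3.22 in IRF8KO, the latter with an x in its identifier, the platform's mark for probes that may bind other transcripts. The others lay below WT by similar amounts (-0.98 each). In IRF4/8DKO the latter were at -0.30 and -0.76. One Crispld2 probe set with the same mark differed by 0.77 and 1.94, and the third by -0.12 and 0.30. Averaged over all its probe sets, the IRF8KO difference was 1.11 for Ptgfrn, 1.17 for Cacna1b and 1.48 for Crispld2. Which transcripts each probe set detects was not tested.

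**Figure D2:**
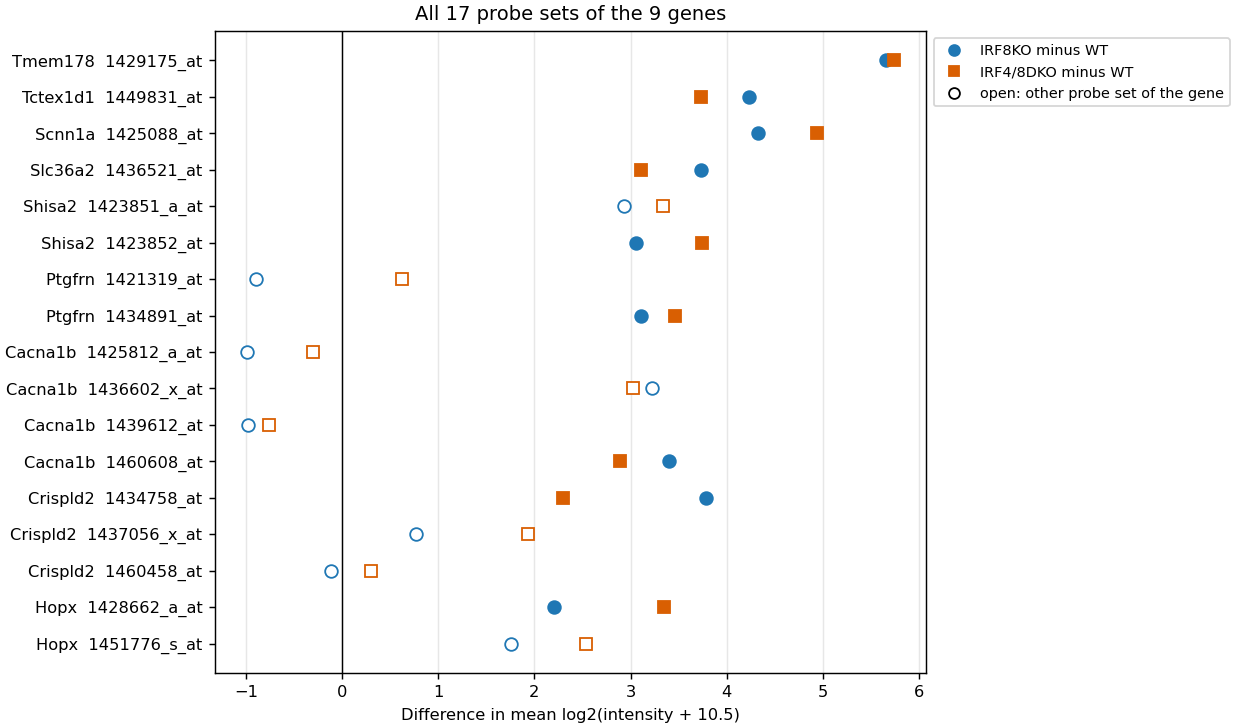
Difference from WT in mean log2(intensity + 10.5) for all 17 probe sets, with circles for IRF8KO, squares for IRF4/8DKO, filled symbols for the probe set that stands for a gene and open ones for its other probe sets. Shisa2 and Hopx agree across their probe sets, while 4 probe sets of Ptgfrn, Cacna1b and Crispld2 lie near or below 0 in IRF8KO.

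Whether the added loss of IRF4 moved these genes was asked of IRF4/8DKO against IRF8KO, a comparison that did not choose them but shares its arrays with those that did. No gene passed, and with 2 mice per genotype the p-values measure the spread between these samples alone. The limma test called 0 of the 9, and 0% of 29783 kept probe sets in either direction, with 1 of the 9 and 2538 kept probe sets (8.52%) at an unadjusted p under 0.05. Crispld2 had the lowest value, 2.79-fold lower in IRF4/8DKO (-1.48 ± 0.56, 95% interval -2.76 to -0.20, limma adjusted p = 0.561). Its probe set with an x went the other way, 2.25-fold higher (1.17 ± 0.50, limma adjusted p = 0.58). Hopx lay 2.21-fold higher (1.14 ± 0.52, interval -0.03 to 2.31, limma adjusted p = 0.593), and its other probe set 1.72-fold higher.

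Intervals of the remaining genes all included 0 (limma adjusted p from 0.666 to 0.973). Shisa2 lay at 0.69 (-0.23 to 1.61), Scnn1a at 0.61 (-0.61 to 1.83) and Ptgfrn at 0.35 (-0.59 to 1.30). Tmem178 showed the smallest difference, 0.08 (-0.93 to 1.09). Below IRF8KO lay Slc36a2 at -0.62 (-1.70 to 0.45), Cacna1b at -0.51 (-1.85 to 0.83) and Tctex1d1 at -0.50 (-1.46 to 0.47). The intervals, which are not adjusted, reached 0.92 to 1.34 to either side. After adjustment even far larger changes could be missed with 2 arrays per genotype. The lowest limma adjusted p over all kept probe sets was 0.364, that of Prg2 at -4.82. The genotypes did not overlap for 5 of the 9 genes, with Shisa2, Ptgfrn and Hopx higher and Slc36a2 and Crispld2 lower in IRF4/8DKO. An order without overlap was found for 36.6% of kept probe sets.

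**Figure D3:**
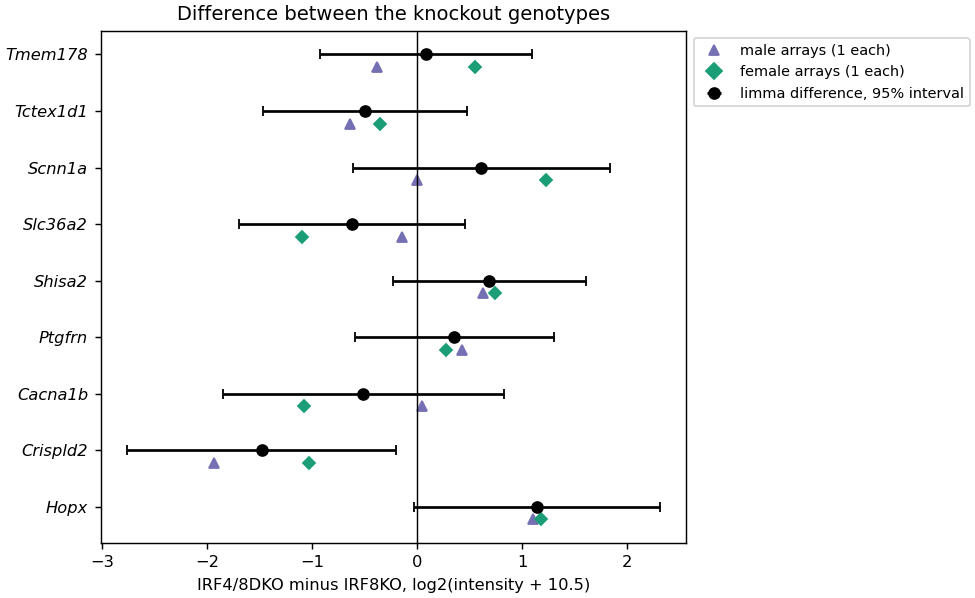
Difference between IRF4/8DKO and IRF8KO in log2(intensity + 10.5) for the 9 genes, with black points and bars for the limma estimate and its 95% interval, triangles for the male pair of arrays and diamonds for the female pair. The interval excludes 0 before adjustment for Crispld2 only (-2.76 to -0.20), and no gene passed after it.

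Relatives and partners of the 9 genes were examined in 9 lists of 90 genes, of which 55 passed the filter on low values. None of the 55 passed the limma test in IRF8KO or IRF4/8DKO against WT, or between the knockout genotypes (8, 8 and 4 at an unadjusted p under 0.05). Between the knockout genotypes 8.52% of kept probe sets were under that unadjusted limit. Against WT that share was not counted, so the counts of 8 cannot be judged. Over all kept probe sets 0.0302% and 0.299% were called in either direction in the comparisons with WT. The median difference of the 55 was 0.27 in IRF8KO and 0.24 in IRF4/8DKO. All 4 knockout arrays lay above WT for 13 of them (23.6%). That order was found for 1420 of 13267 named genes by their brightest probe set, and for 8.51% of kept probe sets. Pi15 and Cacnb2, among the 13, passed the filter through knockout arrays alone and so had to differ from WT.

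None of the 55 relatives lay above WT by as much as the smallest of the 9 genes in the same genotype. The 9 were chosen for large differences from WT, so that order says little about the relatives. The beta subunit gene Scnn1b, which pairs with Scnn1a in the sodium channel, read 38.1 and 25.3 in WT, 75.9 and 99.1 in IRF8KO, and 28.0 and 11.8 in IRF4/8DKO, above WT in IRF8KO alone (limma adjusted p = 0.279). Furin, a protease that activates that channel, read 2075 and 1294 in WT against 2778 to 3518 on the knockout arrays (limma adjusted p = 0.277 and 0.302). Among 6 measured calcium channel subunits, Cacna1d, the pore of an L-type channel, read 1302 and 1088 in WT, 2464 and 3765 in IRF8KO, and 2238 and 2880 in IRF4/8DKO, without overlap (limma adjusted p = 0.135 and 0.281). Of 5 measured CAP-domain genes, Pi15, which passed the filter through knockout arrays alone, lay 1.28 and 1.22 above WT (limma adjusted p = 0.212 and 0.341) and Pi16 2.04 and 2.10 (0.295 and 0.417), while Crispld1, the nearest relative of Crispld2, read 62.8 and 12.5 in WT against 1.22 to 25.3 in the knockouts, which overlap WT. The amino acid transporter genes Slc36a1 and Slc36a3, relatives of Slc36a2, lay 0.44 and 0.68 above WT in IRF8KO (limma adjusted p = 0.716 and 0.559). Of the tetraspanin partners of Ptgfrn, Cd81 lay at 0.52 and 0.24 (limma adjusted p = 0.339 and 0.826) and Cd9 at -0.07 and -0.51. Crispld1, Slc36a1, Slc36a3 and Cd9, like Nfatc1, Srf and Hdac2 in what follows, were named as close relatives or partners after their values were seen.

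Osteoclast and calcium entry genes, listed for Tmem178, had a median of 0.45 in IRF8KO and 0.20 in IRF4/8DKO over 9 measured members. Of these, 6 lay above 0 in IRF8KO and 8 in IRF4/8DKO. Orai1, the store-operated calcium channel, read 103 and 108 in WT, 220.0 and 261 in IRF8KO, and 179 and 176 in IRF4/8DKO, above WT on every knockout array (limma adjusted p = 0.295 and 0.697). Oscar went the other way, at 57.1 and 52.8 in WT against 15.6 to 31.5 on the knockout arrays (limma adjusted p = 0.457 and 0.490). Nfatc1, the factor that Tmem178 restrains, lay at 0.31 and 0.18. Of the Hopx partners, Srf lay at 0.27 and 0.32 and Hdac2 at -0.16 and -0.33 (limma adjusted p from 0.633 to 0.818). Claudin gene Cldn12, listed with Shisa2 and Tmem178, was lower, at -0.97 and -2.31 (limma adjusted p = 0.442 and 0.141).

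Markers of tissues where these genes are better known mostly did not pass the test. Of 32 markers of epithelium, neuron, stroma, endothelium and muscle, 18 passed the filter, and 1 was called in the comparisons with WT: the keratin gene Krt18 fell in IRF4/8DKO, from 865 and 574 to 64.9 and 31.0 (log2 difference -3.68, limma adjusted p = 0.0443). The summed level of 6 epithelial markers was 715 to 1076 in WT, 295 to 477 in IRF8KO and 172 to 234 in IRF4/8DKO. Without Krt18 the other 5 summed to 140.5 to 211, 194 to 224 and 141 to 169.6, so that gene carries the difference. The neuronal genes Snap25, Nefl, Stmn2 and Gap43 did not pass the filter, and Syt1, kept through knockout arrays alone, read 12.9 and 14.4 in WT against 37.2 to 75.2 in the knockouts (limma adjusted p = 0.185 and 0.309). Together the 3 measured neuronal genes, Syt1, Tubb3 and Rbfox3, summed to 87.1 to 98.2 in WT, 163 to 205 in IRF8KO and 135 to 163 in IRF4/8DKO. None was called, and Rbfox3 too was kept through knockout arrays alone. The 5 measured stroma markers had median differences of -0.23 in IRF8KO and -0.63 in IRF4/8DKO. The 3 endothelial ones had -0.20 and -0.16, and the 1 muscle marker 0.40 and -0.11. The endothelial gene Vwf read 172 and 55.0 in WT against 2.44 to 50.8 in the knockouts (limma adjusted p = 0.311 and 0.345), while Pecam1 and Cdh5 overlapped WT. None of the values in the table is 0.

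Some markers of other blood cells also differed between the genotypes, and in these bulk samples more cells of a type and more RNA per cell cannot be told apart. The summed level of 5 measured monocyte and macrophage markers was 2888 to 3325 in WT, 7391 to 9349 in IRF8KO and 9142 to 15215 in IRF4/8DKO. In IRF4/8DKO 3 of them rose, namely Ccr2 by 3.13, Adgre1 by 3.11 and Mpeg1 by 2.07 (limma adjusted p = 0.0285, 0.0342 and 0.0372), and Ly86 fell by 5.14. Neutrophil markers summed to 2071 to 8070, 6078 to 16879 and 3143 to 13979 in the same order of genotypes, overlapping. In each genotype the first array gave the lower sum and the second the higher. Mmp8 was past the test in IRF4/8DKO (16.0-fold higher, limma adjusted p = 0.0416), a gene that passed the filter through knockout arrays alone and so had to differ. Erythroid markers summed to 1946 to 4628 in WT and 135 to 625 on the knockout arrays, with none called. Mast cell, basophil and eosinophil markers summed to 7179 to 11173 in WT, 1424 to 3931 in IRF8KO and 447 to 539 in IRF4/8DKO, where 3 of 6 fell. In IRF8KO the only marker of these 4 lists called was Ly86, which was lower. The part of such cells in the levels of the 9 genes was not tested. When any 1 of the WT or IRF4/8DKO arrays was left out, no probe set was called in IRF4/8DKO against WT, which includes the calls named here.

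**Figure D4:**
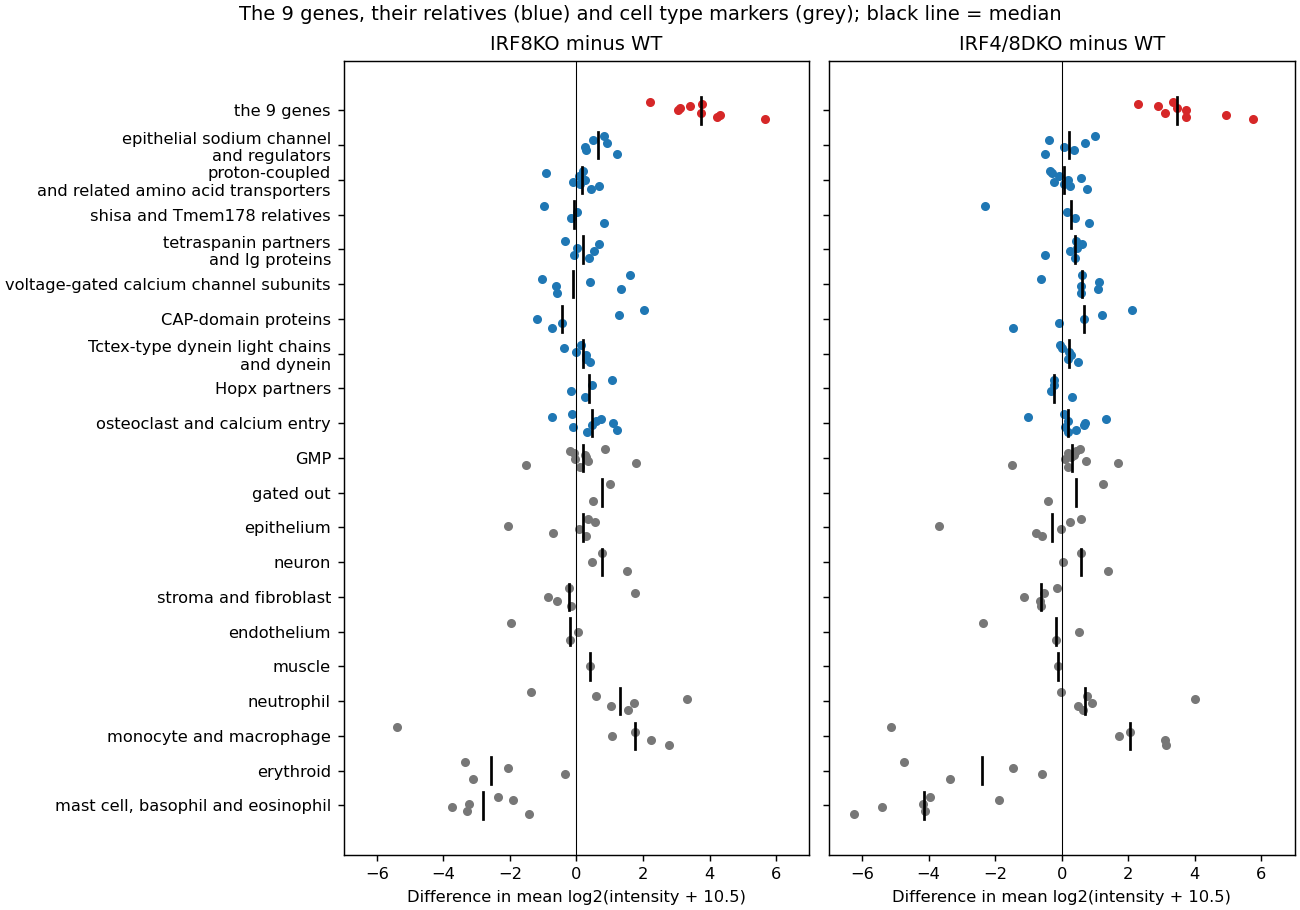
Difference from WT in mean log2(intensity + 10.5) for the 9 genes (red), their relatives and partners (blue) and cell type markers (grey), 1 point per gene and a black line at each list's median, in IRF8KO (left) and IRF4/8DKO (right). The 9 genes, chosen for these differences, lie between 2.20 and 5.74, while the 55 relatives lie between -2.31 and 2.10.

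Position on the chromosome was not used to choose the genes. They lie on 9 different chromosomes. How far any of them lies from the Irf8 or Irf4 gene was not examined, and effects of altered sequence nearby were not tested. For each, the 2 nearest measured genes on either side gave 36 neighbours, with a median difference from WT of 0.22 in IRF8KO and 0.23 in IRF4/8DKO. All 4 knockout arrays were above WT for 9 of the 36 (25%). That order was found for 1420 of 13267 named genes by their brightest probe set, and for 8.51% of kept probe sets. Some of the 9 passed the filter through knockout arrays alone and so had to differ from WT. In IRF4/8DKO 1 was called, beside 0.299% of kept probe sets, and in IRF8KO none. For Tctex1d1 both adjoining genes lay over 2 above WT on the log2 scale, which was so for none of the other 8. BB031773, a long non-coding RNA gene that overlaps the end of Tctex1d1 on the other strand in RefSeq, read 14.2 and 8.75 in WT, 97.2 and 102 in IRF8KO, and 109 and 153 in IRF4/8DKO. It passed the filter through knockout arrays alone and so had to differ from WT. In IRF4/8DKO it passed the test (log2 difference 2.68 ± 0.40, limma adjusted p = 0.0443), and it lay 2.33 above WT in IRF8KO (limma adjusted p = 0.0896). With only WT replicate 2 for WT its adjusted p in IRF4/8DKO was 0.544, with only WT replicate 1 0.319, and without IRF4/8DKO replicates 1 and 2 it was 0.143 and 0.521. With 39.2 as the pseudocount it was 0.0657.

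Sgip1, on the other side of Tctex1d1, codes for an endocytic adaptor of neurons and was singled out after its values were seen. It read 75.7 and 141 in WT, 556 and 688 in IRF8KO, and 649 and 755 in IRF4/8DKO, without overlap (log2 difference 2.46 and 2.64, limma adjusted p = 0.0966 and 0.0627). Among its other 4 probe sets, 2 had the same order of arrays and 2 did not. The next genes outward, Pde4b and Insl5, lay at -0.19 and -0.26 in IRF8KO. Those beside Slc36a2 are its relatives Slc36a1 and Slc36a3, given above. The 4 neighbours of Tmem178, the gene with the largest difference, lay between -0.69 and 0.16 in IRF8KO.

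**Figure D5:**
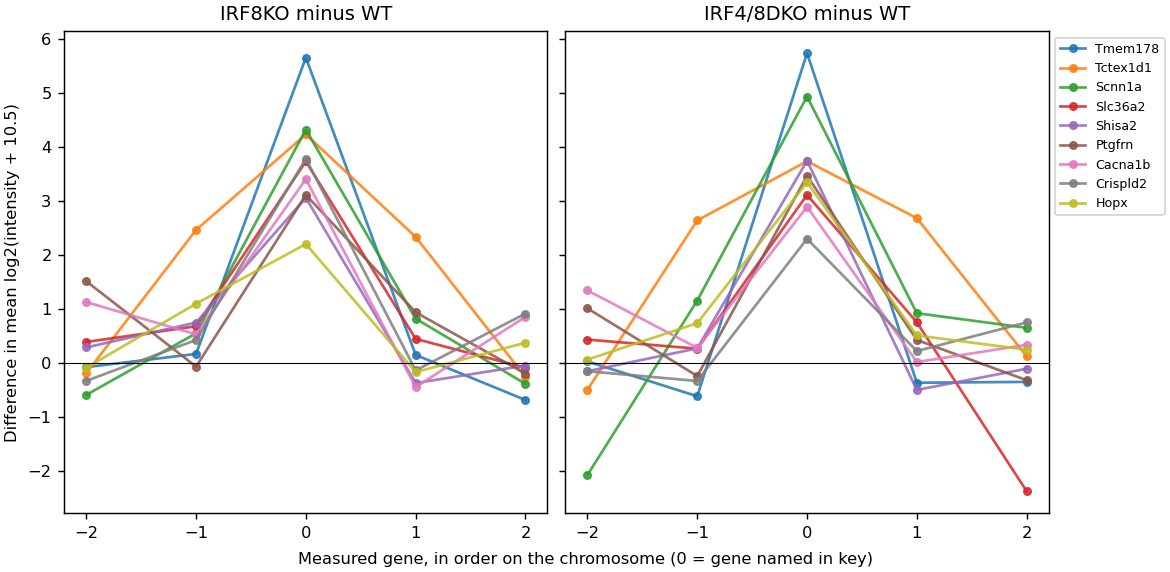
Difference from WT in mean log2(intensity + 10.5) for each of the 9 genes (position 0) and the 2 nearest measured genes on either side, joined by lines, in IRF8KO (left) and IRF4/8DKO (right). The line of Tctex1d1 stays above 2 at the positions on either side (2.46 and 2.33 in IRF8KO), and no other line does.

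Over the 6 arrays, the genes whose profile was most like the mean profile of the 9 were Far2, Abca9 and Clec4a2, from 2152 named genes with a range of at least 2 on the log2 scale. Pearson's r was 0.995, 0.991 and 0.991, a description that rests mainly on the difference between WT and knockout arrays. Far2, an enzyme that makes fatty alcohols, read 346 and 419 in WT and 1152 to 1556 on the knockout arrays. Abca9, a lipid transporter of the ABC family, read 5.08 and 7.48 in WT and 225 to 433 in the knockouts. Clec4a2, a C-type lectin receptor of myeloid cells, read 130 and 235 in WT and 829 to 1040 in the knockouts.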

How the data were processed

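Expression was measured on 6 arrays. The deposited values are linear intensities that the authors normalized and summarised with dChip 1.3 by its model of differences between perfect match and mismatch probes, per the series' design text, from 10 ng of total RNA per array, per the labels. The normalization's baseline array and the treatment of low signals are not named there. Of 45037 probe sets, 34945 carry 1 gene symbol in the platform annotation, 932 carry several and 9160 none, and only the first kind was named.

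Values were kept as deposited, and log2(intensity + 10.5) was taken, with the 25th percentile of all values as pseudocount. A probe set needed a value over the 40th percentile of the array on 2 or more of the 6 arrays, which left 29783. limma 3.58.1 in R 4.3.3 was fitted on all 6 arrays with 1 mean per genotype (lmFit, eBayes with trend, 3 residual degrees of freedom), and p-values are two-sided, adjusted by Benjamini-Hochberg over the 29783 and called under 0.05. It was tested on simulated data. SE and 95% intervals come from that fit, and each gene is represented by its brightest probe set on the mean log2 scale. The 9 genes and all lists were chosen with earlier results of these data known.

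Named are the 9 genes, Irf8 and Irf4, up to 3 genes per list of relatives with the lowest adjusted p, neighbours past the threshold, and the 3 genes of most similar profile. Others are said to be chosen after their values were seen, apart from cell type markers. Alternatives covered the pseudocount, filter, scaling, variance trend, sex, age and replicate number as terms, the genotypes in the fit, each array left out, and averaging a gene's probe sets.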

Additional observations from a re-analysis of the deposited data

Results flagged for a closer look

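For 3 of the 9 genes the difference between IRF4/8DKO and IRF8KO ran in opposite directions in the male and the female arrays. Tmem178 was lower in IRF4/8DKO between the males (-0.39 on the log2 scale) and higher between the females (0.55). Scnn1a was all but level between the males (-0.0052) and higher between the females (1.23). Cacna1b was all but level between the males (0.050) and lower between the females (-1.07). Each value compares 1 array with 1 array, age differs between the IRF8KO mice, and the difference between the sexes was not tested.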

How the results depend on the processing

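Over all alternatives the differences of the 9 genes from WT lay between 1.11 and 5.93 in IRF8KO and between 1.21 and 6.24 in IRF4/8DKO. The choice of the genes largely fixes that direction, so it is no support for them. For the difference between the knockout genotypes, no alternative called 1 of the 9. That difference changed sign in 5 of 158 cases. Averaged over all probe sets it was 0.049 for Cacna1b and 0.035 for Crispld2. With single arrays left out it ran from -1.35 to 0.32 for Cacna1b (0.32 without IRF8KO replicate 1), from -0.42 to 0.59 for Tmem178 and from -0.00029 to 1.23 for Scnn1a (the lower ends without IRF4/8DKO replicate 2).

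Counts of calls over all probe sets were unstable, and the cause was not tested. In IRF8KO against WT (9 in the fit reported) they were 21 and 5 with the lower and higher pseudocount, 5 with no filter, 17 with the 60th percentile filter, 30 with quantile normalization (13 higher, against 3 of 9), 5 without the variance trend, 2 with a block for sex, 136 with age as covariate and 2 with the compared genotypes alone. In IRF4/8DKO against WT (89) they were 13 with no filter, 45 with median centring, 27 without the trend, 0 with a block for sex, 229 with age as covariate and 476 with the compared genotypes alone. Between the knockout genotypes (0) there were 2 with age. Leaving out single arrays gave 0 to 1090 (the highest without IRF8KO replicate 1), 0 to 484 (without IRF8KO replicate 2) and 0 to 200 (without IRF8KO replicate 1). Median centring moved the median of all probe sets from -0.06 to 0.08 in IRF8KO and from -0.04 to 0.18 in IRF4/8DKO.

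Replicate numbers are shared between genotypes but no label ties them to a litter or day, and the deviations of same-numbered arrays correlated at 0.04 to 0.21. A replicate block gave 209, 216 and 1 called probe sets in the 3 comparisons.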

Other observations

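For 7 of the 36 neighbours of the 9 genes, the second arrays of both knockout genotypes read above the other 4 arrays, although one is from a male and the other from a female. The share of all kept probe sets with this order was not counted, so the count of 7 says nothing particular about neighbours. Sgip1 is among the 7, and all its knockout arrays lay above WT. The pattern, and the 3 examples given, were singled out after their values were seen. Trim45, near Ptgfrn, read 780 and 721 in WT, 1114 and 4175 in IRF8KO, and 838 and 2752 in IRF4/8DKO. Psd4, near Cacna1b, read 192 and 215 in WT, 333 and 622 in IRF8KO, and 315 and 890.1 in IRF4/8DKO. Arrdc1, also near Cacna1b, read 259 and 174 in WT, 167 and 903 in IRF8KO, and 135 and 533 in IRF4/8DKO. What sets these arrays apart was not tested.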
